A study of Homo sapiens with 6 samples.

Results

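The genes described here are 35 enzymes and subunits of purine, pyrimidine and deoxynucleotide synthesis matched by exact symbol among the 43424 symbols of the count tables. All 35 were found, and all 35 passed the filter on low counts that left 13198 genes for testing. They were read in 5 roles: 11 genes of purine synthesis, 5 of pyrimidine synthesis, 6 of salvage, 9 of deoxynucleotide supply and 4 of steps that several routes share. Expression was counted in HepG2, an established line of human liver cancer cells whose genotype the labels give as wild type. There were 3 control libraries, which the labels list with no treatment, and 3 libraries from cells given 10 µM tamarixetin, a methylated form of the flavonol quercetin, for 24 h. Treatment medium held 1% serum where growth medium held 10%. Neither the serum nor any vehicle of the controls over that time is stated in the labels, so a difference between the groups cannot be told apart from one of serum or vehicle. Samples within a group are biological replicates by their labels. The libraries were of a 3′ type, in which a transcript gives about 1 counted fragment whatever its length, so scaled counts (CPM, scaled to the size of the library) were compared between genes with no length correction.

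Purine nucleotides are built stepwise on phosphoribosyl pyrophosphate (PRPP) until inosine monophosphate (IMP) is formed, from which separate branches lead to AMP and GMP. Pyrimidines are made by building the ring first, as orotate, and then joining it to PRPP to give UMP, the parent of CTP. Salvage enzymes return free bases and nucleosides to nucleotides, and ribonucleotide reductase turns ribonucleotides into the deoxynucleotides that DNA synthesis uses, a supply that peaks in S phase. Dividing cancer cells are known to rely on these routes, and several of the enzymes are targets of antimetabolite drugs.

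The sequences in front of the start sites are shown for the 3 members that fell and the 3 that rose with the smallest p among those with a RefSeq promoter window (GRCh38.p14, found for 32 of 35 members; ADSL, IMPDH2 and RRM2B had none). Each is the stretch before the start farthest upstream, at most 150 bases, without bases of a neighbouring gene, read 5′ to 3′ on the gene's strand. Capitals mark the E-box, CCAAT box and GC box defined after the sequences, on either strand; none of these stretches holds an E2F element. Positions here and below are RefSeq's on GRCh38.p14. RRM2 (chr2:10122418-10122567, plus strand), RRM1 (chr11:4094535-4094684, plus) and TK1 (chr17:78187205-78187354, minus) fell, and NME1 (chr17:51153409-51153558, plus), IMPDH1 (chr7:128409983-128410132, minus) and ATIC (chr2:215311973-215312058, plus) rose.
RRM2: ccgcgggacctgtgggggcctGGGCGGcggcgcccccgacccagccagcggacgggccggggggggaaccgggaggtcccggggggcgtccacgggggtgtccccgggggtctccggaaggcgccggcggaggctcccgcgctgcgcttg
RRM1: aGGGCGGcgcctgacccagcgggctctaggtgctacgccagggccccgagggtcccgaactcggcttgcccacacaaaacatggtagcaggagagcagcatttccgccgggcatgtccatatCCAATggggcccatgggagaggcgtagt
TK1: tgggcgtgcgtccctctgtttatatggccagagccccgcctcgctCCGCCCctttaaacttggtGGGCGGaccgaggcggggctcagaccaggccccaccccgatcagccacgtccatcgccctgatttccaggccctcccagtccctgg
NME1: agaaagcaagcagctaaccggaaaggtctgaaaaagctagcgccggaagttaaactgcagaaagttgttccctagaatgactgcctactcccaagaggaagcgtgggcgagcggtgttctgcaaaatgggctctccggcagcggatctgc
IMPDH1: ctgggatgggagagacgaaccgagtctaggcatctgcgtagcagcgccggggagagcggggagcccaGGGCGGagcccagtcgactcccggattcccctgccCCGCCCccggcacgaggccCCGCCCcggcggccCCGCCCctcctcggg
ATIC: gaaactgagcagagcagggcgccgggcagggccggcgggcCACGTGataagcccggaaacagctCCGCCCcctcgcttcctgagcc
The last stretch lies between the start of PPAT and the PAICS start nearest to it, which point away from each other 137 bases apart (chr4:56435616-56435751, plus strand), and is shown because these purine genes share it. PAICS has 3 RefSeq windows; the one farthest upstream, used for the motif counts, starts inside PPAT and is not the one shown.
PPAT-PAICS: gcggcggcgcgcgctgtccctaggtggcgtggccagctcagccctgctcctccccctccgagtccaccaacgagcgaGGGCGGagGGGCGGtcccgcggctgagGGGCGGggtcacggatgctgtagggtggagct

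Motifs were counted on both strands in the 250 bases before the start farthest upstream, a window longer than the stretches printed. A GC box, spelled GGGCGG, lay in 22 of 32 members (68.8%), against 66.8% of promoters of genes tested and 42.2% of all promoters. The CCAAT box is the 5 letters of its name, and it lay in 12 of 32 members (37.5%), against 35.4% of promoters of genes tested and 33.0% of all promoters. RRM1, RRM2 and NME1 were among those 12. An E-box, CACGTG, lay in 4 of 32 members (12.5%), against 8.74% of promoters of genes tested and 6.46% of all promoters. These were PPAT, ATIC, DHODH and DCK. An E2F element was any of TTTCCCGC, TTTCGCGC, TTTGGCGC and TTTGCCGC, and it lay in 2 of 32 members (6.25%), against 4.56% of promoters of genes tested and 2.78% of all promoters, namely TYMS and PRPS2. The NRF1 element lay in 4 of 32 members (12.5%), against 10.7% of promoters of genes tested and 5.53% of all promoters. The cell cycle element CHR was searched as TTTGAA and, in its other form, as TTCGAA, and it lay in 5 of 32 members (15.6%), against 9.84% of promoters of genes tested and 14.6% of all promoters. These were ADSS2, UMPS, APRT, RRM1 and DTYMK. The ATF4 element, TGATGNAA, lay in 0 of 32 members (0%), against 1.31% of promoters of genes tested and 3.19% of all promoters. Motifs can overlap each other, and a match is only a match of letters in these windows. GART, PAICS, ADSS1, ADSS2, CTPS1, CTPS2, ADK, RRM2, DUT and TK1 have more than 1 RefSeq window, and the counts and the stretches of RRM2 and TK1 rest on the one farthest upstream.

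In deoxynucleotide supply, 6 of 9 genes fell and none rose, with a median log2 fold change of -0.45. The 6 include SAMHD1, which breaks deoxynucleoside triphosphates down. In purine synthesis, 4 of 11 genes rose and none fell, with a median of 0.13 (0.076 without tamarixetin replicate 2). Pyrimidine synthesis, salvage and the shared steps each had 1 gene higher and 1 gene lower. In all, 7 of 35 members rose and 9 fell (45.7% changed), beside 43.7% of all genes tested (22.4% higher and 21.3% lower), so the share of members that changed is near that of all genes tested. The groups did not overlap in 16 members (45.7%), beside 50.5% of all genes tested. The median log2 fold change was 0.038 over the members and 0.00038 over all genes tested. The member median had no stable sign: it was -0.0035 without tamarixetin replicate 1, -0.046 without tamarixetin replicate 2, 0.063 without control replicate 3, and between 0.0021 and 0.016 with any 1 of the others left out. With scaling by library size alone, 9 members rose and 7 fell. When the test asked for a change above 1.2-fold, 7 members passed, IMPDH1 and NME1 higher and RRM1, RRM2, DUT, TK1 and SAMHD1 lower, beside 19.4% of all genes tested. Each gene was tested in edgeR by quasi-likelihood, and p-values were adjusted by Benjamini-Hochberg over all 13198 genes.

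**Figure D1:**
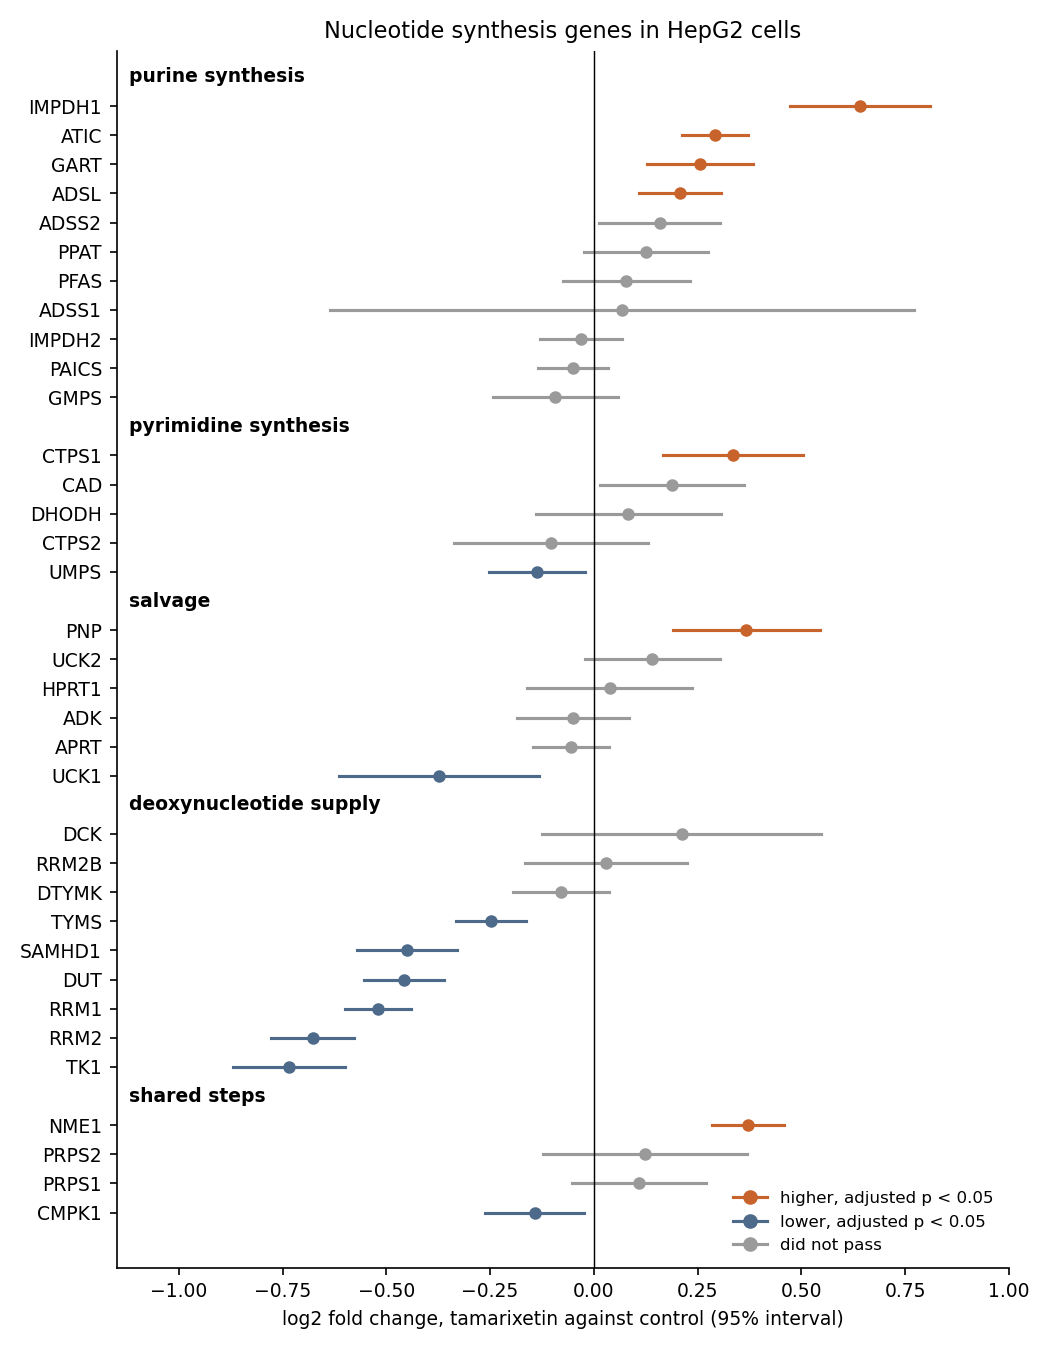
Log2 fold change of each of the 35 members, tamarixetin against control, with its 95% interval, grouped by role and ordered within each role. Orange points passed the test as higher, blue points as lower and grey points did not pass; 6 of the 9 blue points lie in deoxynucleotide supply, from TYMS at -0.25 to TK1 at -0.74, and IMPDH1 at 0.64 is the highest.

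Library totals ran from 11980585 to 16168855 counts, and mitochondrial transcripts took 10.3% to 11.0% of the counts in control and 7.98% to 8.53% in tamarixetin libraries. All 8 hepatocyte markers checked were abundant, at 123 CPM or more in every library, and all 8 fell (median log2 fold change -0.89); the part of that change in the results below was not tested. Of 8 markers of other cell types, PTPRC, VWF and LYVE1 stayed under 1 CPM in all libraries and were at 0 in at least 1. The others were counted in every library: COL1A1 at 20.3 to 26.7 CPM, CD68 at 11.3 to 15.2, COL1A2 at 7.75 to 10.5, PDGFRB at 1.60 to 3.57 and PECAM1 at 0.439 to 1.40. The summed level of the list was 47.3 to 53.8 CPM in control and 46.0 to 50.2 CPM in tamarixetin libraries. COL1A1 and PDGFRB, 2 of the 5 tested, fell. In control cells the members ranged from RRM1 at 277 ± 3.56 CPM, followed by ATIC, TYMS and PAICS, down to DCK at 6.59 ± 0.932 and ADSS1 at 1.72 ± 0.306 CPM. Of the 34 neighbouring pairs in that order of levels, 21 overlapped between libraries, TYMS with PAICS among them.

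Ribonucleotide reductase, the enzyme that makes deoxynucleotides, fell in its main subunits. RRM1, the large catalytic subunit (chromosome 11, 4094685 to 4138932), stood at 275, 281 and 274 CPM in the control libraries and 191, 196 and 191 CPM in the tamarixetin libraries. All 3 tamarixetin libraries lay below all 3 controls, a 1.43-fold lower level (log2 fold change -0.52, SE 0.040, adjusted p = 3.70e-21, edgeR). RRM2, the small subunit made in S phase (chromosome 2, 10122568 to 10211010), stood at 137, 152 and 151 CPM in the control libraries and 93.3, 93.0 and 89.0 CPM in the tamarixetin libraries. It was 1.60-fold lower, again with no overlap (log2 fold change -0.68, SE 0.050, adjusted p = 2.81e-22, edgeR). RRM2B, the small subunit known as a p53 target that serves cells outside S phase, stood at 23.0, 22.2 and 23.6 CPM in the control libraries and 20.5, 26.0 and 24.0 CPM in the tamarixetin libraries. Its groups overlapped and it did not pass (log2 fold change 0.029, SE 0.099, 95% interval -0.17 to 0.23). The summed level of both small subunits per RRM1 was 0.614 ± 0.0285 (SD, n = 3) in control libraries. With tamarixetin it was 0.597 ± 0.00740, a difference smaller than the SD of the controls. In bulk samples, fewer cells in S phase and less RNA per cell cannot be told apart.

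The thymidine nucleotide enzymes were uneven. TK1, the cytosolic thymidine kinase that salvages thymidine in S phase (chromosome 17, 78174079 to 78187204), stood at 71.1, 62.9 and 72.4 CPM in the control libraries and 42.8, 41.8 and 39.4 CPM in the tamarixetin libraries. With no overlap between the groups, it was 1.66-fold lower, the largest fall among the 35 members (log2 fold change -0.74, SE 0.068, adjusted p = 6.24e-17, edgeR). DUT, which clears dUTP and yields the dUMP for thymidylate, stood at 154, 175 and 155 CPM in the control libraries and 121, 119 and 111 CPM in the tamarixetin libraries, and all tamarixetin values were below all controls (log2 fold change -0.46, SE 0.049, adjusted p = 4.27e-14, edgeR). TYMS, thymidylate synthase and the target of fluorouracil, stood at 203, 204 and 214 CPM in the control libraries and 172, 169.6 and 181 CPM in the tamarixetin libraries, a smaller fall, also without overlap (log2 fold change -0.25, SE 0.043, adjusted p = 6.75e-07, edgeR). DTYMK, the next kinase on the way to dTTP, stood at 75.3, 89.0 and 87.3 CPM in the control libraries and 81.1, 80.8 and 75.7 CPM in the tamarixetin libraries. These values overlapped and DTYMK did not pass (log2 fold change -0.080, SE 0.058, 95% interval -0.20 to 0.036, adjusted p = 0.277, edgeR), though it passed without control replicate 1 (log2 fold change -0.16, adjusted p = 0.0318, edgeR).

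SAMHD1 does the opposite of the reductase, breaking deoxynucleoside triphosphates down, and it fell too. It stood at 87.2, 81.3 and 76.9 CPM in the control libraries and 60.7, 62.0 and 56.5 CPM in the tamarixetin libraries, with no overlap (log2 fold change -0.45, SE 0.061, adjusted p = 5.18e-10, edgeR). DCK, the deoxycytidine kinase that activates drugs such as gemcitabine, was low, at 5.74, 7.58 and 6.46 CPM in the control libraries and 7.70, 7.89 and 7.18 CPM in the tamarixetin libraries. It overlapped between groups and did not pass (log2 fold change 0.21, SE 0.17, 95% interval -0.12 to 0.55). The summed level of the 9 deoxynucleotide genes was 1032, 1075 and 1061 CPM in the control libraries and 790.4, 797 and 775 CPM with tamarixetin. The share of this role that fell, 66.7%, stands beside 21.3% of all genes tested. RRM1, RRM2, DUT, TK1 and SAMHD1 stayed past the threshold under all 17 alternatives run, and TYMS under all but the minimum fold of 1.2.

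**Figure D2:**
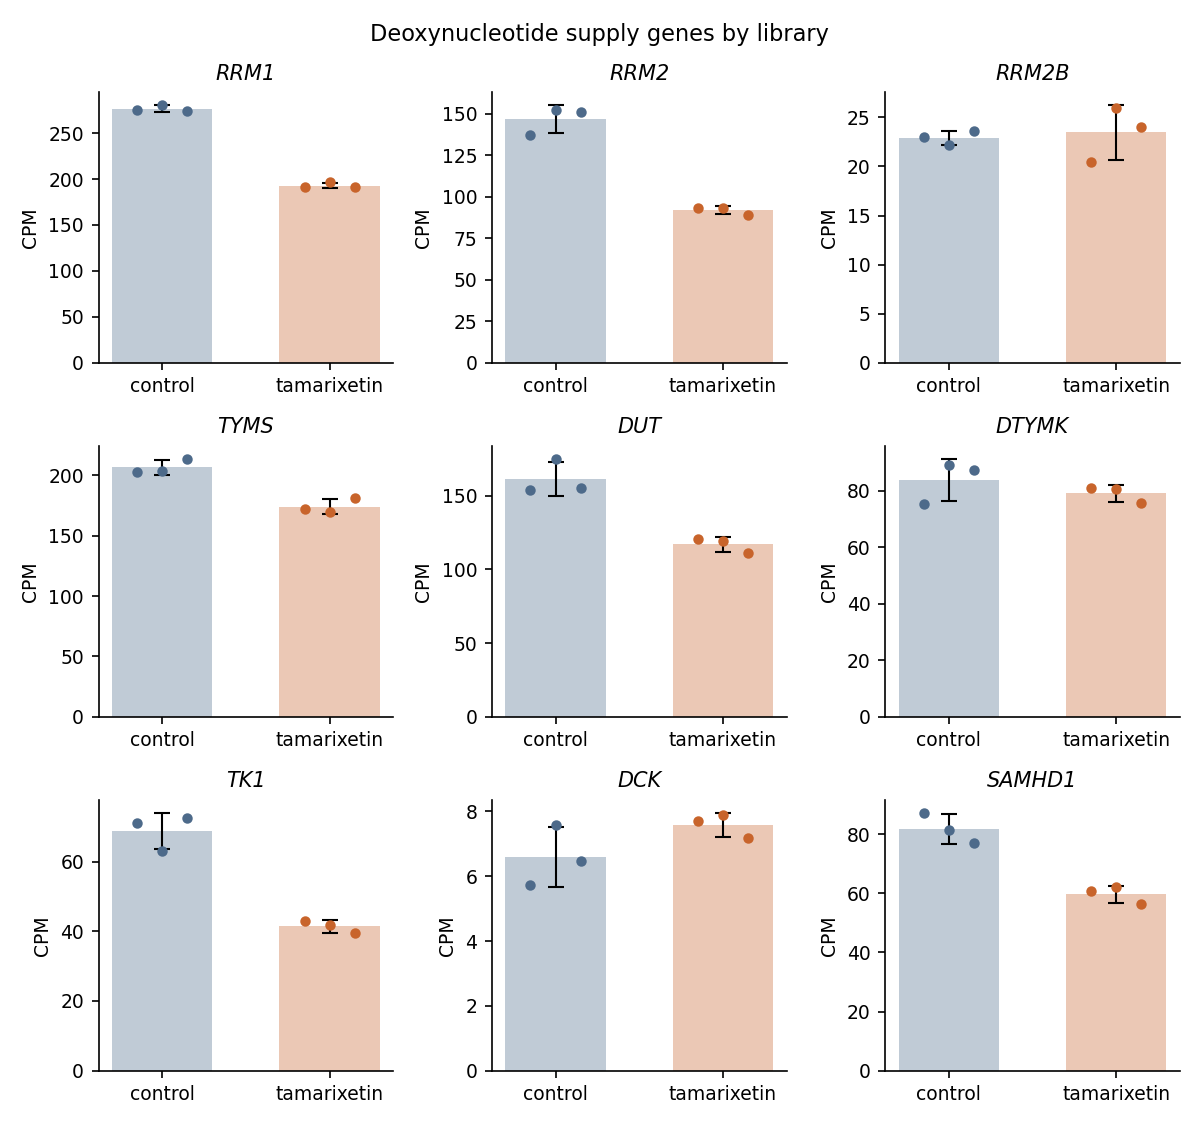
Level in CPM of the 9 deoxynucleotide supply genes in each library; bars are means, error bars SD (n = 3 per group) and points single libraries. The groups are apart in RRM1, RRM2, TYMS, DUT, TK1 and SAMHD1 and overlap in RRM2B, DTYMK and DCK.

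In purine synthesis, genes of the route to IMP (GART, ADSL and ATIC) and of the branch to GMP (IMPDH1) rose. IMPDH1, an isoform of the rate-limiting enzyme of guanine nucleotide synthesis (chromosome 7, 128392277 to 128409982), had the largest rise of all members. It stood at 27.9, 24.4 and 23.8 CPM in the control libraries and 37.1, 41.0 and 40.7 CPM in the tamarixetin libraries, a 1.56-fold level with no overlap (log2 fold change 0.64, SE 0.085, adjusted p = 3.29e-10, edgeR). IMPDH2, the isoform that dominates in proliferating cells, stood at 128, 133 and 115 CPM in the control libraries and 119.7, 127 and 122 CPM in the tamarixetin libraries. Its groups overlapped (log2 fold change -0.031, SE 0.050, 95% interval -0.13 to 0.068), and it did not pass.

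ATIC, which carries out the last steps to IMP (chromosome 2, 215312059 to 215368592), stood at 218, 222 and 217 CPM in the control libraries and 270.2, 275 and 258 CPM in the tamarixetin libraries. Every tamarixetin library was above every control, and the level was 1.22-fold that of control (log2 fold change 0.29, SE 0.040, adjusted p = 8.27e-10, edgeR). GART, which joins several steps of the route in a single protein (chromosome 21, 33503931 to 33542893), stood at 54.8, 52.6 and 54.7 CPM in the control libraries and 62.0, 66.7 and 65.3 CPM in the tamarixetin libraries, again apart (log2 fold change 0.26, SE 0.064, adjusted p = 5.09e-04, edgeR). ADSL, which releases fumarate both on the way to IMP and in AMP synthesis (chromosome 22, 40346500 to 40387527), stood at 103, 111 and 108 CPM in the control libraries and 122, 124 and 126 CPM in the tamarixetin libraries, with no overlap (log2 fold change 0.21, SE 0.050, adjusted p = 2.86e-04, edgeR). These 3 rises were modest, at most 1.22-fold, and none passed with the minimum fold of 1.2.

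The entry and several other steps did not pass. PPAT, the amidotransferase that commits PRPP to purines, stood at 39.9, 46.3 and 38.9 CPM in the control libraries and 44.9, 48.6 and 42.5 CPM in the tamarixetin libraries. PAICS, its divergent neighbour and a bifunctional enzyme of the middle of the route, was among the most abundant members, at 193, 204 and 204 CPM in the control libraries and 187, 199 and 194 CPM in the tamarixetin libraries. Both overlapped between groups, with log2 fold changes of 0.13 (95% interval -0.024 to 0.28) and -0.050 (-0.13 to 0.034), and neither member of the divergent pair passed. PFAS, a glutamine-using enzyme of the route, went from 37.7 ± 2.03 to 39.9 ± 1.98 CPM (log2 fold change 0.079, 95% interval -0.075 to 0.23). GMPS, which finishes GMP, went from 41.7 ± 1.96 to 39.1 ± 1.42 CPM (log2 fold change -0.092, interval -0.24 to 0.058; SD, n = 3 per group). For the AMP branch, ADSS2 stood at 42.0, 39.9 and 40.4 CPM in the control libraries and 43.7, 47.5 and 45.3 CPM in the tamarixetin libraries. Its groups were apart, but it did not pass (log2 fold change 0.16, SE 0.074, adjusted p = 0.0725, edgeR), except with scaling by library size alone (adjusted p = 0.0252, edgeR). ADSS1, the muscle-type isoform, was low, at 1.72 ± 0.306 CPM in control libraries and 1.80 ± 0.351 CPM with tamarixetin (95% interval of the log2 fold change -0.63 to 0.77). Summed over the 11 purine genes, the level was 887, 913 and 884 CPM in the control libraries and 968, 1009.7 and 973 CPM with tamarixetin. The mean sum went from 895 to 983 CPM, and the mean of ATIC alone rose by 49.0 CPM. The 36.4% of the role that rose stands beside 22.4% of all genes tested. As none fell, 36.4% changed in either direction, beside 43.7% of all genes tested. With the minimum fold of 1.2, IMPDH1 was the only purine gene that passed.

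**Figure D3:**
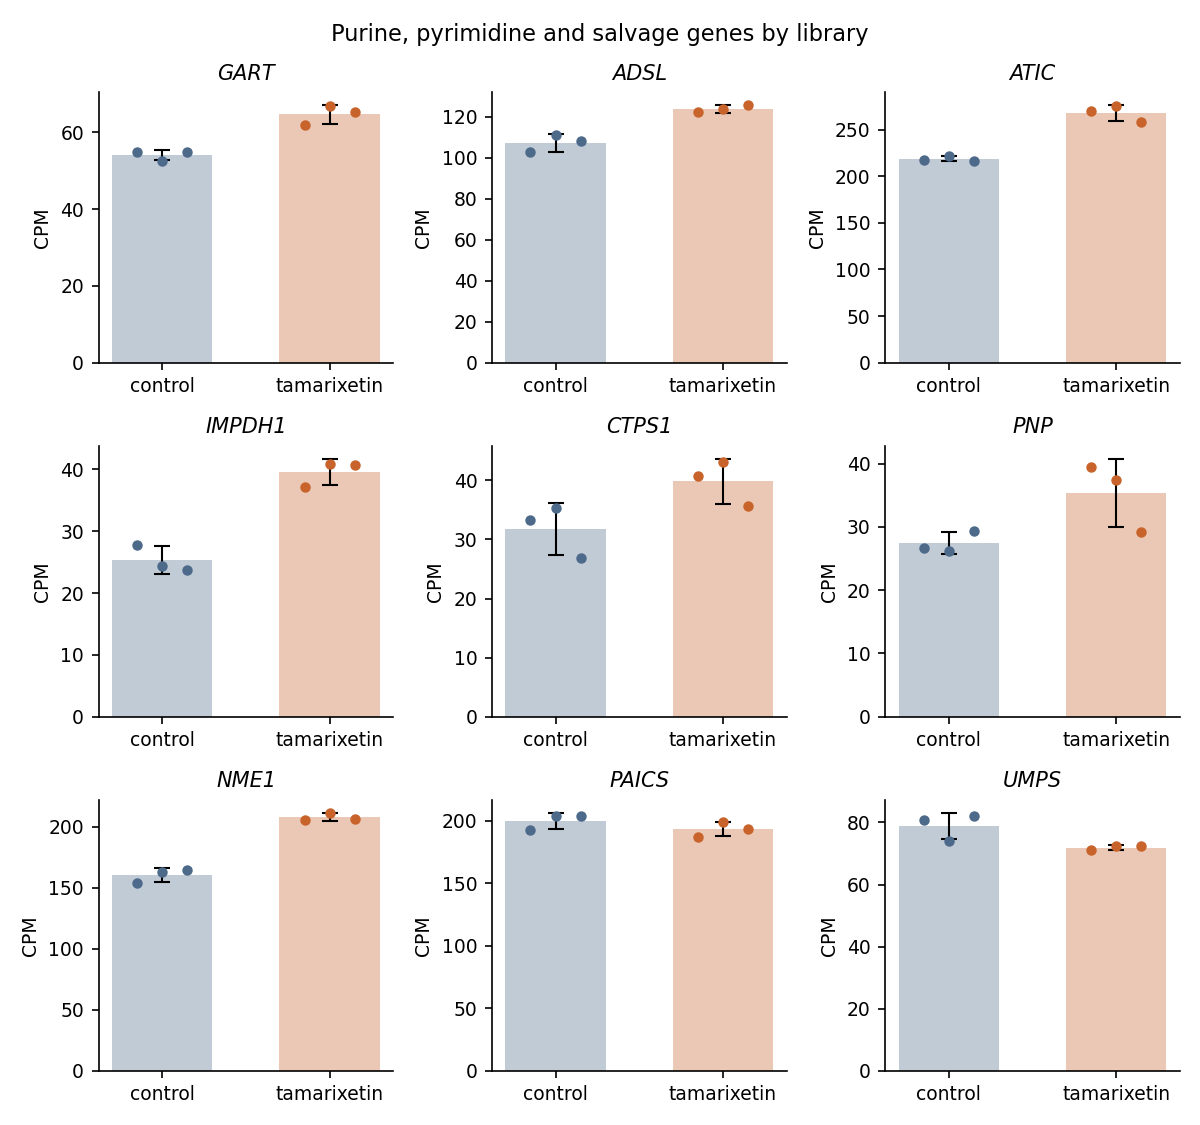
Level in CPM of 9 members of purine, pyrimidine, salvage and shared steps in each library; bars are means, error bars SD (n = 3 per group) and points single libraries. GART, ADSL, ATIC, IMPDH1, CTPS1 and NME1 are higher in every tamarixetin library, PNP is higher in mean but overlaps, PAICS overlaps and UMPS is slightly lower. The panels hold the 7 members called higher, with PAICS and UMPS, and the other members of these roles are not shown.

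In pyrimidine synthesis the last step, CTP formation, had the gene that rose, and UMPS fell narrowly. CTPS1, the CTP synthetase that proliferating cells depend on (chromosome 1, 40979696 to 41012565), stood at 33.2, 35.3 and 26.9 CPM in the control libraries and 40.8, 43.1 and 35.6 CPM in the tamarixetin libraries. The lowest tamarixetin value, 35.6 CPM, was just above the highest control, and CTPS1 passed the test (log2 fold change 0.34, SE 0.084, adjusted p = 5.64e-04, edgeR). Without control replicate 3, the lowest library, its log2 fold change was 0.22 (adjusted p = 0.0449, edgeR). CTPS2 stood at 16.8, 15.7 and 15.05 CPM in the control libraries and 14.9, 14.04 and 15.3 CPM in the tamarixetin libraries, overlapped and did not pass (log2 fold change -0.10, SE 0.12, 95% interval -0.34 to 0.13). CAD, the large protein that carries the opening steps, stood at 27.8, 28.8 and 28.5 CPM in the control libraries and 28.3, 33.4 and 35.5 CPM in the tamarixetin libraries. The tamarixetin libraries were spread more widely than the controls, and CAD did not pass (log2 fold change 0.19, SE 0.088, adjusted p = 0.0734, edgeR). It passed without tamarixetin replicate 1 (log2 fold change 0.28, adjusted p = 0.0137, edgeR) and with scaling by library size alone (adjusted p = 0.0309, edgeR).

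DHODH, the mitochondrial step that makes orotate, stood at 16.3, 17.3 and 17.1 CPM in the control libraries and 18.6, 15.5 and 19.7 CPM in the tamarixetin libraries, with overlap (log2 fold change 0.083, SE 0.11, 95% interval -0.14 to 0.31). UMPS, which turns orotate into UMP, stood at 80.7, 74.2 and 81.9 CPM in the control libraries and 71.0, 72.3 and 72.3 CPM in the tamarixetin libraries. Its groups were just apart, and it passed narrowly as lower (log2 fold change -0.14, SE 0.058, adjusted p = 0.0461, edgeR). That call was lost under 10 of 17 alternatives, among them leaving out control replicate 1 or 3 or any tamarixetin library (adjusted p = 0.0773 to 0.158, edgeR) and DESeq2 (adjusted p = 0.117).

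In salvage, PNP, the phosphorylase that splits purine nucleosides to bases, rose and UCK1 fell. PNP stood at 26.7, 26.3 and 29.4 CPM in the control libraries and 39.4, 37.3 and 29.2 CPM in the tamarixetin libraries. The tamarixetin replicate 3 value lay within the range of the controls while the other two were well above it, and PNP passed (log2 fold change 0.37, SE 0.089, adjusted p = 3.18e-04, edgeR). UCK1, a uridine and cytidine kinase, stood at 16.2, 15.3 and 16.1 CPM in the control libraries and 12.6, 12.1 and 12.1 CPM in the tamarixetin libraries, with no overlap (log2 fold change -0.37, SE 0.12, adjusted p = 0.00844, edgeR). Its paralog UCK2, which many tumours express, stood at 32.9, 37.5 and 31.8 CPM in the control libraries and 39.8, 34.1 and 38.4 CPM in the tamarixetin libraries, overlapped and did not pass (log2 fold change 0.14, SE 0.082, 95% interval -0.021 to 0.30).

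The base and adenosine salvage enzymes did not pass. HPRT1, which returns hypoxanthine and guanine to nucleotides, went from 23.0 ± 3.11 to 23.7 ± 2.42 CPM (SD, n = 3 per group; log2 fold change 0.038, 95% interval -0.16 to 0.24). APRT, which does the same for adenine and was the most abundant salvage gene, went from 152 ± 3.83 to 146 ± 7.69 CPM (log2 fold change -0.055, interval -0.15 to 0.037). ADK, adenosine kinase, went from 52.4 ± 1.49 to 50.5 ± 3.05 CPM (log2 fold change -0.050, interval -0.19 to 0.086). The salvage median was -0.0059; it was 0.029 when only library size was scaled for and ran from -0.054 to 0.031 with single libraries left out.

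Among the shared steps, NME1 changed most. NME1, a nucleoside diphosphate kinase that makes triphosphates of both ribo- and deoxynucleotides (chromosome 17, 51153559 to 51162168), stood at 154, 163 and 165 CPM in the control libraries and 205, 211 and 206 CPM in the tamarixetin libraries. With the groups well apart, it was 1.29-fold the control level (log2 fold change 0.37, SE 0.043, adjusted p = 2.27e-12, edgeR). Its neighbour NME2 was at 0 in 5 of 6 libraries, so the NME1 count is uncertain as a measure of that gene alone. CMPK1, the kinase of UMP and CMP, stood at 68.9, 76.8 and 77.1 CPM in the control libraries and 65.8, 68.5 and 67.5 CPM in the tamarixetin libraries and passed narrowly as lower (log2 fold change -0.14, SE 0.060, adjusted p = 0.0457, edgeR). The CMPK1 call was lost under 11 of 17 alternatives, among them leaving out control replicate 2 or 3 or any tamarixetin library (adjusted p = 0.0700 to 0.164, edgeR). PRPS1 and PRPS2, which make PRPP for all of these routes, overlapped between groups. PRPS1 stood at 33.9, 37.7 and 38.0 CPM in the control libraries and 44.9, 35.5 and 37.4 CPM in the tamarixetin libraries, with tamarixetin replicate 1 above the rest (log2 fold change 0.11, 95% interval -0.051 to 0.27). PRPS2 stood at 11.7, 13.5 and 16.7 CPM in the control libraries and 13.8, 16.6 and 15.6 CPM in the tamarixetin libraries (log2 fold change 0.12, interval -0.12 to 0.37).

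Several steps are run by a pair of paralogs, and the share of each within a library does not depend on scaling. In control cells IMPDH2 held most of the IMPDH counts. Its share was 82.2%, 84.5% and 82.9% in the control libraries and 76.3%, 75.6% and 75.0% in the tamarixetin libraries, a difference of -7.58 percentage points with no overlap. RRM2B made up 14.4%, 12.7% and 13.5% in the control libraries and 17.98%, 21.8% and 21.2% in the tamarixetin libraries of the small subunit counts of the reductase. The RRM2B share was thus higher by 6.83 points, while the level of RRM2B itself overlapped between groups and that of RRM2 was lower. For the CTP synthetases, the CTPS1 share was 66.4%, 69.2% and 64.1% in the control libraries and 73.2%, 75.4% and 70.0% in the tamarixetin libraries. The UCK2 share of the uridine and cytidine kinases was 66.9%, 71.1% and 66.4% in the control libraries and 76.0%, 73.8% and 76.0% in the tamarixetin libraries. In each of these 4 pairs the groups did not overlap, and the exact two-sided permutation p was 0.1, the smallest that 3 against 3 libraries allow (0.15 adjusted over the 6 pairs). No share over other paralog pairs was computed, and of single genes tested 50.5% did not overlap either. With single libraries left out, the exact permutation p ran from 0.1 to 0.2 for the CTPS1 and UCK2 shares. The PRPS1 share, 72.4% ± 2.64 in control and 71.7% ± 4.32 with tamarixetin (SD, n = 3 each), and the ADSS1 share, 4.05% ± 0.715 and 3.81% ± 0.749, overlapped between groups (exact permutation p = 0.9 and 0.7).

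**Figure D4:**
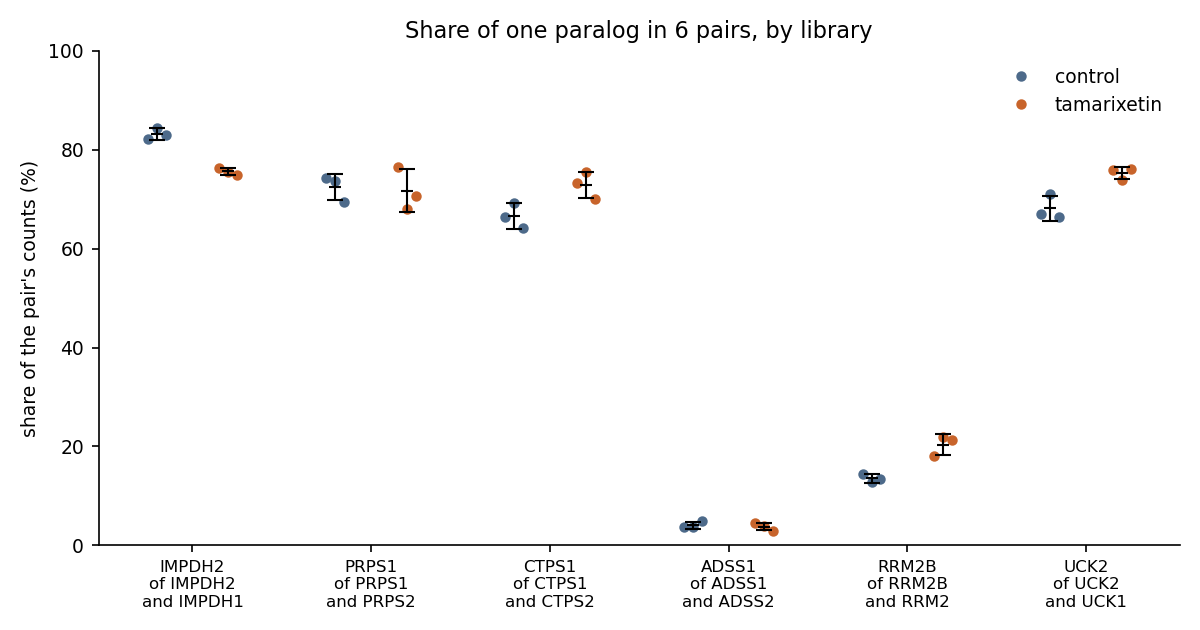
Share of the counts of a paralog pair held by the first gene named, in percent, for 6 pairs; points are single libraries, with mean and SD (n = 3 per group). The groups are apart for IMPDH2, CTPS1, RRM2B and UCK2 and overlap for PRPS1 and ADSS1.

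Other genes around the pathway were read as lists. Replication fork genes fell in 13 of 20 (65.0%, beside 21.3% of all genes tested) and rose in 1, with a median of -0.32. By p, MCM5 (log2 fold change -0.80, SE 0.061) and MCM2 (log2 fold change -0.52, SE 0.045) of the replicative helicase led this list. The 13 fork genes and the 6 deoxynucleotide genes that fell did so in the same comparison of 6 libraries, and the part of the former in the latter was not tested. One-carbon enzymes, whose formyl and methylene groups feed purine rings and thymidylate, rose in 3 of 7 (42.9%, beside 22.4% of all genes tested) and fell in 2 (28.6%, beside 21.3%). MTHFD2 (log2 fold change 0.72, SE 0.048) and MTHFD1L (log2 fold change 0.85, SE 0.066), both of mitochondrial folate metabolism, had the smallest p, with levels going from 109 ± 8.96 to 181 ± 6.30 CPM and from 41.6 ± 1.38 to 74.9 ± 4.66 CPM (SD, n = 3 per group). In 9 of 17 alternatives fewer than 2 of the 7 fell, among them without control replicate 1 or 2 and without tamarixetin replicate 1 or 3 (1 each).

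Other nucleotide kinases and partners of the PRPP synthetases fell in 5 of 10 tested (50%) and rose in 1 (10.0%), beside 22.4% higher and 21.3% lower among all genes tested. PRPSAP1, a PRPP synthetase-associated protein, fell from 108 ± 3.01 to 79.5 ± 4.64 CPM (log2 fold change -0.44, SE 0.054), and the mitochondrial diphosphate kinase NME4 from 123 ± 2.66 to 93.6 ± 5.80 CPM (log2 fold change -0.39, SE 0.051). With scaling by library size alone, without control replicate 2 and without control replicate 3, 3 of these 10 fell. Enzymes of nucleotide breakdown and interconversion rose in 4 of 15 tested (26.7%) and fell in 3 (20.0%), shares near those of all genes tested. The AMP deaminase AMPD3 was low, and its counts went from 11, 6 and 5 counts to 46, 37 and 35 (log2 fold change 2.43, SE 0.41), and the nucleotidase NT5C2 fell (log2 fold change -0.46, SE 0.089). Without control replicate 1, or tamarixetin replicate 2 or 3, 2 of these enzymes rose.

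Mitochondrial and sanitising enzymes of deoxynucleotides rose in 2 of 7 (28.6%) and fell in none, beside 22.4% higher and 21.3% lower among all genes tested. Those were DCTPP1, which hydrolyses dCTP and its modified forms (log2 fold change 0.48, SE 0.055), and ITPA, which clears inosine triphosphate (log2 fold change 0.19, SE 0.044). Without control replicate 2, or with upper quartile scaling, 1 of the 7 fell. Nucleoside and nucleotide carriers rose in 2 of 5 tested and fell in 2 (40.0% each way), beside 22.4% higher and 21.3% lower among all genes tested. The lysosomal nucleoside carrier SLC29A3 rose from 23.2 ± 2.01 to 39.2 ± 1.49 CPM (log2 fold change 0.77, SE 0.087), and the mitochondrial pyrimidine nucleotide carrier SLC25A33 fell from 69.0 ± 2.84 to 46.8 ± 2.56 CPM (log2 fold change -0.56, SE 0.066; SD, n = 3 per group).

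**Figure D5:**
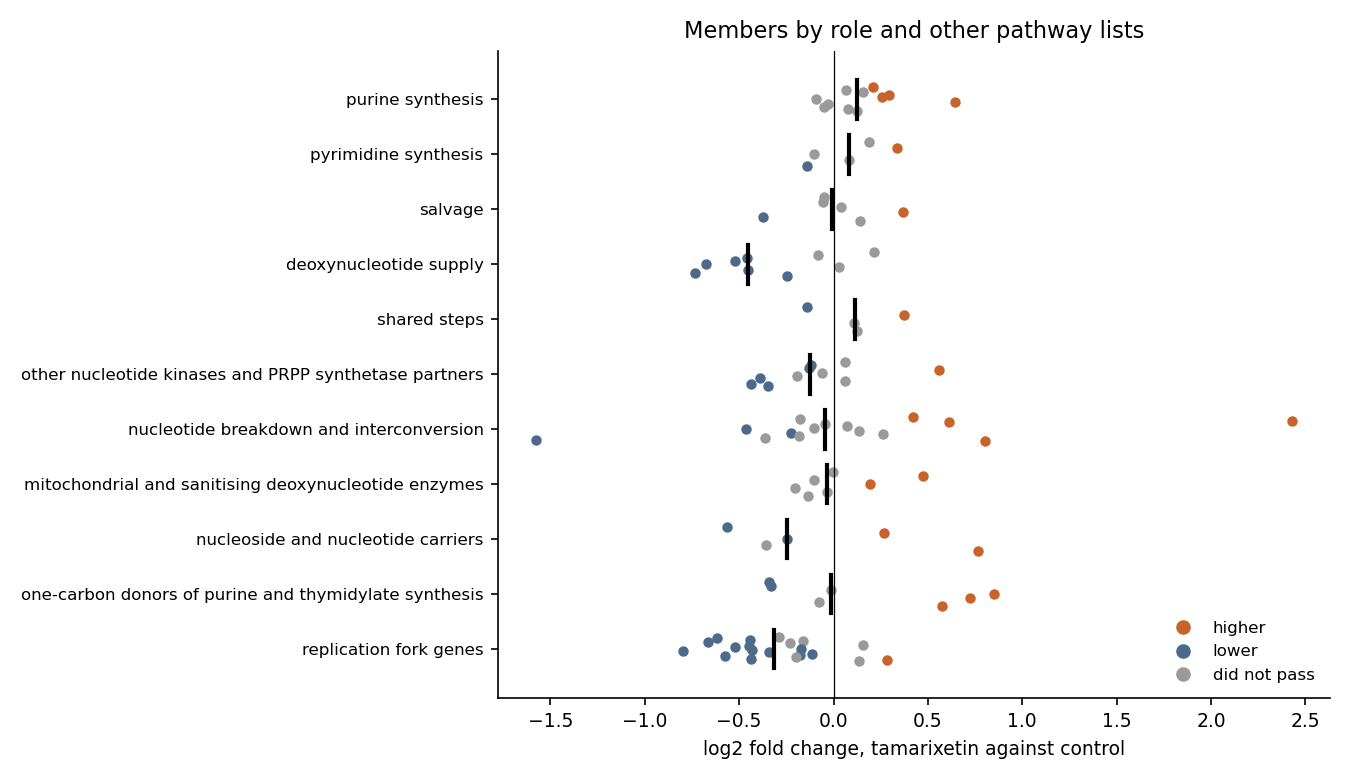
Log2 fold change, tamarixetin against control, of each tested gene in the 5 roles of the members and in 6 lists of other pathway genes; each point is a gene, coloured by its call, and the black bar is the list's median. The median is -0.45 for deoxynucleotide supply and -0.32 for the replication fork genes.

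Some members overlap other genes, and the labels do not state the strand setting of the counting, so reads of such pairs could have been split or dropped. TYMS overlaps ENOSF1 and TYMSOS on the other strand, which averaged 436 and 1580.5 counts per library beside 2667 for TYMS, and both were lower with tamarixetin (log2 fold changes -0.29 and -0.66). ATIC overlaps FN1 on the other strand, which averaged 30136 counts beside 3400.3 for ATIC and fell slightly (log2 fold change -0.083) while ATIC rose. SAMHD1 overlaps TLDC2 on the other strand, and ADSL overlaps SGSM3 on the same strand, both with far fewer counts (51.0 and 97.3 per library). Both partners were lower with tamarixetin (log2 fold changes -0.73 and -0.47). PFAS overlaps CTC1 on the other strand (104.2 counts beside 541.5 for PFAS), and PPAT and PAICS overlap each other on opposite strands (606.7 and 2748.8 counts). CTC1 did not pass (log2 fold change 0.29). NME1 lies in the readthrough gene NME1-NME2, listed at 0 in all 6 libraries, and its neighbour NME2 was at 0 in 5 of 6, so the NME1 count is uncertain as a measure of that gene alone.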

How the data were processed

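RNA was measured in 6 libraries of HepG2 cells, 3 control and 3 tamarixetin, grouped by their titles. Per the labels' protocols, the library kit was Lexogen's QuantSeq 3′ (forward). The submitters' processing notes name the tools fastp 0.23.1, STAR 2.7.10b and featureCounts 2.0.6 and the build GRCh38. Neither annotation, strand setting nor molecular identifiers are stated there. The authors deposited raw counts by gene symbol in 1 table per library.

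Differences were fitted in edgeR 4.0.16 under R 4.3.3 (filterByExpr, TMM scaling, quasi-likelihood F test, group as the only term), with Benjamini-Hochberg adjustment over 13198 genes and a threshold of 0.05. SE was derived from the log2 fold change and the root of F, and intervals are 95%. CPM use the TMM-adjusted library size. Between libraries of the same group the chi-square per gene was 2.35 to 3.53, above sampling noise, so none was treated as a copy. With no molecular identifiers stated, these values cannot tell separate cultures from separate libraries of the same RNA. That the samples are biological replicates rests on the labels alone. The p-values rest on the spread between these libraries, but the fit draws the spread of each gene toward that of the other genes tested. An SE or p-value is therefore not a measure of the spread of that gene alone.

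On simulated counts for this comparison (13051 genes tested) the fit recovered 54% of 50 genes changed 1.25-fold, 78% at 1.5-fold, 92% at 2-fold and 96% at 3-fold, with 2 false calls. Only these genes were changed there, and all genes were drawn with the same biological coefficient of variation, 4.7%, to which counting noise adds. In the data 43.7% of genes tested were called, so these rates describe the simulated setting and not the recovery in the data. All 35 members were described whatever their values, and of each other list the 2 genes with the smallest p. Hepatocyte and other-cell markers, and overlapping genes (ENOSF1, TYMSOS, FN1, TLDC2, SGSM3, CTC1, NME2, NME1-NME2), were added as checks, the overlapping genes after their values were seen. Members and lists were chosen with earlier results of these data known. Coordinates and promoters are RefSeq's (GRCh38.p14). Alternatives covered other scalings, other filters, DESeq2 1.42.0, limma-voom (limma 3.58.1), the replicate number as a block, each library left out, an adjusted p of 0.01 and a minimum fold of 1.2.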

Additional observations from a re-analysis of the deposited data

How the results depend on the processing

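Of 594 log2 fold changes of members computed under 17 alternatives, 553 kept their direction and their side of the threshold, 28 lost the call, 4 gained one and 9 turned sign, and 18 of 35 members kept both in all. When a change above 1.2-fold was asked for, 1319 genes rose and 1241 fell, of which 2 and 5 were members; that alternative tests a larger change by construction. No other alternative moved these counts by over 1.5 times, and across single libraries left out the members counted 7 to 8 higher and 7 to 9 lower. The signs that turned belong to genes that did not pass: IMPDH2 with scaling by library size alone (0.0040) and RRM2B with upper quartile scaling (-0.0062), and, with single libraries left out, IMPDH2 (-0.095 to 0.0044), ADSS1 (-0.037 to 0.23), HPRT1 (-0.064 to 0.11), RRM2B (-0.050 to 0.12) and PRPS1 (-0.0035 to 0.18). Likewise the share differences of PRPS1 (-3.11 to 1.09 points) and ADSS1 (-0.57 to 0.17 points) turned sign; the cause was not tested. With the replicate number as a block, 2943 genes rose and 2792 fell, among them 7 and 9 members, and the paired log2 differences of the 4 separated paralog pairs reached p = 0.25, the smallest that 3 pairs allow in an exact test. ADSS1 gave no value with at least 5 CPM required. Same-numbered libraries did not deviate together (correlations -0.041 to -0.0089, 3 pairs; 0 of 6 libraries correlated best with their own number), so the numbers were not read as pairs. Depth limits ADSS1 and DCK most, with the widest intervals.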
